A study of Homo sapiens with 5 samples.

Results

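The kinases CDK1, CDK2, CDK4, CDK6 and CDK7, the phosphatases CDC25A, CDC25B and CDC25C and the kinases WEE1 and PKMYT1, which together set the activity of the cell-cycle engine, were followed in RNA-seq of RPE1 cells treated with doxorubicin. They were taken by gene symbol, and all 10 were among the 26485 genes of the deposited count table. All 10 also passed the filter on low counts, together with 14187 genes in all. RPE1 is a human cell line established from retinal pigment epithelium, here wild type in every library. The control group was 2 libraries of cells given the solvent DMSO, and the treated group was 2 libraries at 0.2 μM and 1 library at 0.34 μM doxorubicin, an inhibitor of topoisomerase II that leaves DNA breaks. All cultures were treated for 18 h, and the 3 doxorubicin libraries were compared as 1 group, as in the design of the study. The labels of the libraries give these doses in μM below 1, whereas the general treatment protocol writes both without the decimal point, at far larger values in μM.

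Cyclin-dependent kinases (CDKs) drive a cell through its division cycle and act only when bound to a cyclin. CDK4 and CDK6 act in G1, CDK2 at the start of and during DNA replication, CDK1 at entry into mitosis, and CDK7, the CDK-activating kinase, phosphorylates the activating loop of the others. WEE1 and PKMYT1 hold CDK1 (WEE1 also CDK2) inactive by phosphorylating the ATP-binding site, the CDC25 phosphatases remove these phosphates, and the DNA damage checkpoint acts on this switch by inhibiting CDC25 proteins.

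The 5 libraries held between 23773061 and 36725345 counts on genes, and the normalization factors were between 0.975 and 1.04. Of 9 marker genes of retinal pigment epithelium, 3 had over 10 counts in every library, among them MITF and OTX2, while the defining visual-cycle genes RPE65 and RLBP1 had at most 8 counts in any library. Markers of blood cells summed to at most 2.20 CPM (counts scaled to library size) and those of endothelium to at most 3.53 CPM. Between the DMSO libraries, 8 of the 10 genes were higher in replicate 2 than in replicate 1, by up to 2.78-fold for CDC25A. The table does not tell whether fewer cells expressed a gene or each cell held less of its mRNA: in bulk RNA these cannot be told apart.

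After doxorubicin, 5 of the 10 genes fell past the threshold, a Benjamini-Hochberg adjusted p of 0.01 in the quasi-likelihood test of edgeR. These were CDC25C, CDK1, CDC25B, CDK2 and WEE1, and over the whole transcriptome 2.73% of tested genes were called lower. No member was called higher by edgeR, DESeq2 or limma voom. CDC25A and PKMYT1 also had all 3 doxorubicin libraries below both DMSO libraries but missed the threshold. Counting them, 7 of the 10 genes had groups that did not overlap with doxorubicin lower, an arrangement shown by 23.4% of tested genes. CDK4, CDK6 and CDK7 had overlapping groups. The median log2 fold change was -1.81 over the 10 genes and 0.013 over all tested genes.

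**Figure D1:**
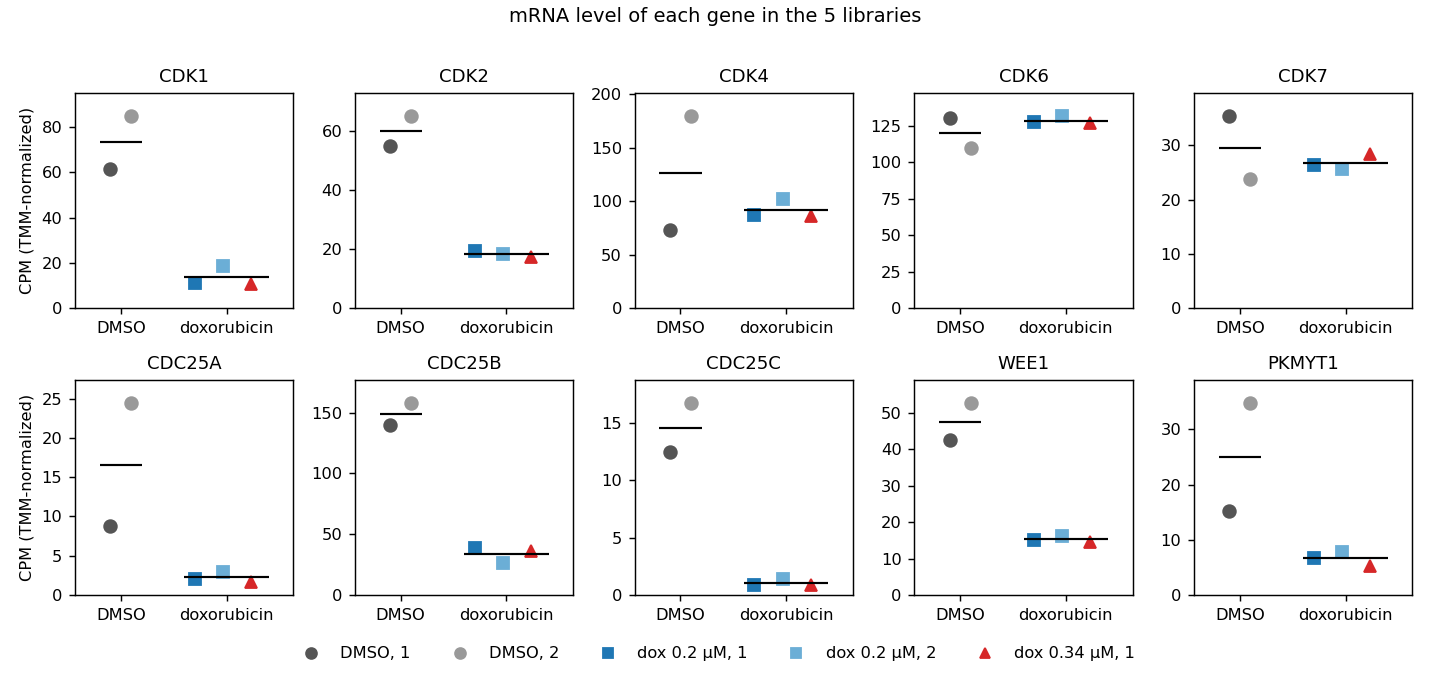
TMM-normalized CPM (vertical axes, linear and starting at 0) of each of the 10 genes in 2 DMSO and 3 doxorubicin libraries, with a point per library and a bar at the group mean. In 7 panels every doxorubicin point lies below both DMSO points, whereas the groups overlap for CDK4, CDK6 and CDK7.

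Among the kinases, CDK1, the mitotic CDK, had 61.6 and 84.7 CPM in the DMSO libraries, 11.2 and 18.7 CPM at 0.2 μM and 10.7 CPM at 0.34 μM. The highest doxorubicin library was thus well below the lowest control. The mean was 73.2 ± 16.3 CPM (SD, n = 2) in DMSO and 13.5 ± 4.49 CPM (SD, n = 3) in doxorubicin, a 5.42-fold lower level. Its log2 fold change was -2.44 ± 0.29 (SE, edgeR adjusted p = 0.00402). CDK2, the kinase of DNA replication, had 55.2 and 65.1 CPM in DMSO against 19.3, 18.3 and 17.4 CPM in doxorubicin. Its doxorubicin libraries lay closer to each other than its DMSO libraries. The level was 3.28-fold lower, with a log2 fold change of -1.71 ± 0.16 (SE, edgeR adjusted p = 0.00163).

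CDK4, CDK6 and CDK7 gave no call. CDK4, which with cyclin D phosphorylates RB in G1, had 73.0 and 179 CPM in DMSO and 87.1, 102 and 86.2 CPM in doxorubicin. All of its doxorubicin values lay between the DMSO values, which differed 2.46-fold, and its log2 fold change was -0.46 ± 0.35 (SE, edgeR adjusted p = 0.418). Without DMSO replicate 2 the CDK4 value turned to 0.31. CDK6, the close relative of CDK4 in G1, had 130.2 and 109.6 CPM in DMSO and 128, 132 and 127 CPM in doxorubicin, with a log2 fold change of 0.10 ± 0.14 (SE, edgeR adjusted p = 0.675). CDK7, which also serves transcription as part of the general factor TFIIH, had 35.4 and 23.7 CPM in DMSO and 26.3, 25.7 and 28.5 CPM in doxorubicin. Its doxorubicin libraries again lay inside the range of the DMSO libraries, and its log2 fold change was -0.14 ± 0.21 (SE, edgeR adjusted p = 0.697). The signs of CDK6 and CDK7 also turned when a DMSO library was left out, to -0.03 for CDK6 without replicate 2 and to 0.17 for CDK7 without replicate 1.

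All 3 CDC25 phosphatases were lower in every doxorubicin library. CDC25C, which activates CDK1 at entry into mitosis, had 12.4 and 16.7 CPM in DMSO and 0.89, 1.37 and 0.85 CPM in doxorubicin. In raw counts these were 326 and 427 against 23, 33 and 31, so the treated values rested on few reads. The mean was 14.6 ± 3.03 CPM (SD, n = 2) in DMSO and 1.04 ± 0.289 CPM (SD, n = 3) in doxorubicin, which is 14.1-fold lower and the largest fall of the 10 genes. Its log2 fold change was -3.82 ± 0.31 (SE, edgeR adjusted p = 0.00125). CDC25B, held to start CDK1 activation at the centrosome, was the most abundant of the 3 and had 139.6 and 158 CPM in DMSO and 39.0, 26.7 and 36.5 CPM in doxorubicin. These values gave a 4.36-fold lower level and a log2 fold change of -2.13 ± 0.19 (SE, edgeR adjusted p = 0.00163). CDC25A, which acts on CDK2 at the G1/S transition as well as on CDK1, had 8.77 and 24.4 CPM in DMSO and 2.05, 2.99 and 1.71 CPM in doxorubicin. As a ratio, the DMSO libraries of CDC25A lay further apart than those of any other of the 10 genes, 2.78-fold. Its mean was 7.40-fold lower, and its log2 fold change of -2.89 ± 0.47 (SE) did not pass the threshold (edgeR adjusted p = 0.0116). Leaving out DMSO replicate 2 gave a log2 value of -1.99, and leaving out replicate 1 gave -3.46.

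The inhibitory kinases were lower as well. WEE1, the nuclear kinase, had 42.6 and 52.6 CPM in DMSO and 15.1, 16.1 and 14.6 CPM in doxorubicin. The spread was small in both groups beside the gap between them. The mean was 47.6 ± 7.09 CPM (SD, n = 2) in DMSO and 15.3 ± 0.742 CPM (SD, n = 3) in doxorubicin, 3.11-fold lower, with a log2 fold change of -1.64 ± 0.17 (SE, edgeR adjusted p = 0.00225). PKMYT1, the membrane-bound kinase of the same family, had 15.3 and 34.7 CPM in DMSO and 6.76, 7.85 and 5.34 CPM in doxorubicin. Although the groups did not overlap, the DMSO libraries differed 2.27-fold, and its log2 fold change of -1.91 ± 0.36 (SE) missed the threshold (edgeR adjusted p = 0.0188). Without DMSO replicate 2 its log2 value was -1.22, and without replicate 1 it was -2.40.

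**Figure D2:**
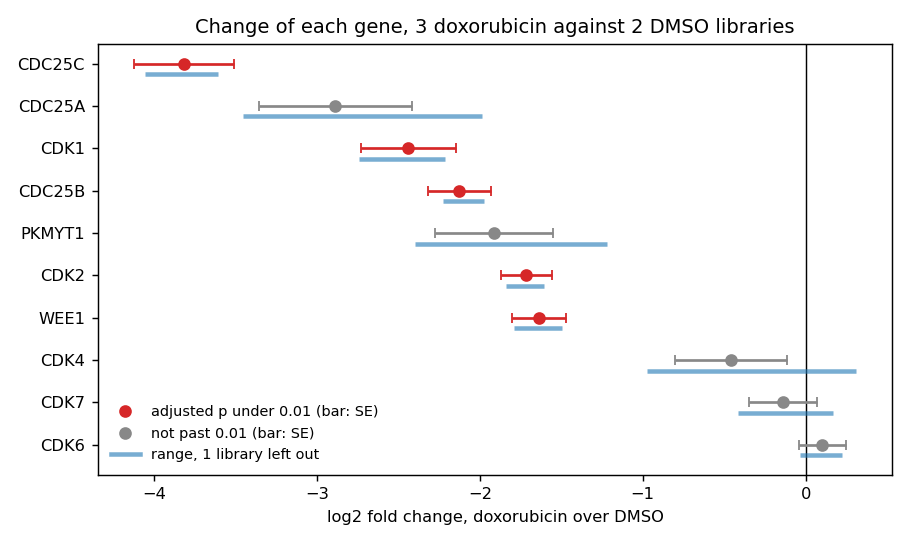
Log2 fold change of doxorubicin over DMSO (horizontal axis) for each gene, with bars of 1 SE, red where the edgeR adjusted p was under 0.01, and in blue the range of the value when each of the 5 libraries was left out in turn. Only CDK4, CDK6 and CDK7 have ranges that cross 0, and CDC25C lies furthest to the left, at -3.82.

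The calls rested on few libraries. Without DMSO replicate 2, edgeR called 0 of the 10 genes, although 8 had an unadjusted p under 0.05 (as did 32% of the genes tested in that fit), and in the other fits with 1 library left out it called between 2 and 4 of them (4 without DMSO replicate 1, 2 without 0.2 μM replicate 1, 3 without 0.2 μM replicate 2 and 2 without the 0.34 μM library). DESeq2 called 7, adding CDC25A and PKMYT1, and limma voom called 5. The calls over all genes moved too, with 571 in edgeR, 2026 in DESeq2 and 526 in limma voom. In edgeR they were 207 without 0.2 μM replicate 1, 183 without 0.2 μM replicate 2 and 178 without the 0.34 μM library.

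To ask whether the genes that fell share letters near their starts, promoter windows of RefSeq on GRCh38, running from 250 bases before to 50 after an annotated start, were searched on both strands. Windows were matched for 7 of the 10 genes, 16 windows in all, and CDK2, WEE1 and PKMYT1 had no match. The motifs were TTTGAA, the core of the element called CHR that marks many genes of G2 and mitosis, CCAAT, the box bound by NF-Y, and the E2F-type motif TTTCGCG with its variants TTCCCGC and TTTGGCG. Of all 35116 windows, 15.2% held TTTGAA, 34.6% CCAAT, 1.32% TTTCGCG, 6.55% TTCCCGC and 1.92% TTTGGCG. These shares are per window, and a gene with several starts had several chances of a match. The sequences shown are those of the pair with TTTGAA, one of which had the largest fall, with CDC25A as an example of another arrangement and CDK4 as a gene that was not called. Capitals mark the motifs, with CCAAT read on the other strand as ATTGG.
CDC25C, chr5:138331872-138331901, minus strand: gcgcgcgcggagATTGGctgacgcagctta
CDC25C, chr5:138331817-138331846, minus strand: gctggcggaaggTTTGAAtggtcaacgcct
CDK1, chr10:60778388-60778417, plus strand: agctgggctctgATTGGctgcTTTGAAagt
CDK1, chr10:60778420-60778449, plus strand: acgggctacccgATTGGtgaatccggggcc
CDK1, chr10:60778448-60778477, plus strand: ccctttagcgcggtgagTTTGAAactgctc
CDC25A, chr3:48188418-48188537, minus strand: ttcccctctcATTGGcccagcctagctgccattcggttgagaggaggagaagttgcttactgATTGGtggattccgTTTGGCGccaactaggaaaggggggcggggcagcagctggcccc
CDK4, chr12:57752311-57752430, minus strand: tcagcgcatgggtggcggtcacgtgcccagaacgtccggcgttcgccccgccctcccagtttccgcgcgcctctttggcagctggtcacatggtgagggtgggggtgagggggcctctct

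In the CDC25C stretches, TTTGAA begins at position -30 and the CCAAT box at -85 from the start at 138331804, where -1 is the base just before the start. In CDK1, TTTGAA begins at -69 and -13 and CCAAT boxes at -78 and -46 from the start at 60778478. TTTGAA was thus in windows of 2 of the 7 matched genes, CDK1 and CDC25C, both of which were called lower. CDC25B, also called lower, and CDC25A, lower in every doxorubicin library, had no TTTGAA in their windows. CCAAT was in windows of 4 genes, CDK1 and the 3 CDC25 genes. An E2F-type motif was in windows of 5 genes, these 4 and CDK7, where TTTGGCG begins at -248. For CDC25C it lay in the windows of the starts at 138338355 and 138338341, not in that of the start shown. The share of windows with any E2F-type motif was not computed. The windows of CDK4 and CDK6 held none of the 5 motifs. These are matches of letters, and no binding was measured.

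To compare the levels of the genes with each other, counts were divided by annotated exon length and scaled to a common total (TPM). The order and the sums of TPM depend on these lengths, such as 9251 bases for WEE1 and 2416 for CDK7. In CPM, WEE1 lay above CDK7 in both DMSO libraries. In DMSO replicate 1 CDC25B was highest with 180.3 TPM, followed by CDK4 with 119 TPM, and in replicate 2 CDK4 was highest with 299.1 TPM, followed by CDC25B with 208.5 TPM. CDK1 came next in both, with 79.5 and 112 TPM. The least abundant in DMSO were WEE1 (23.2 and 29.4 TPM), CDC25C (18.8 and 25.9 TPM), PKMYT1 (15.5 and 36.1 TPM) and CDC25A (10.7 and 30.4 TPM), whose ranges overlapped each other.

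In all 3 doxorubicin libraries CDK4 was highest, with 141.4 to 167 TPM. CDK7 (54.2 to 59.8 TPM) and CDK6 (52.5 to 54.7 TPM) came next and overlapped, and CDC25B followed with 34.8 to 50.2 TPM. CDK1 lay below CDK4, CDK6, CDK7 and CDC25B, with 13.9 to 24.3 TPM, and overlapped CDK2 with 22.7 to 25.0 TPM. WEE1 (8.02 to 8.84 TPM) and PKMYT1 (5.45 to 8.03 TPM) came after these, and CDC25A (2.09 to 3.67 TPM) and CDC25C (1.30 to 2.10 TPM) were lowest.

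**Figure D3:**
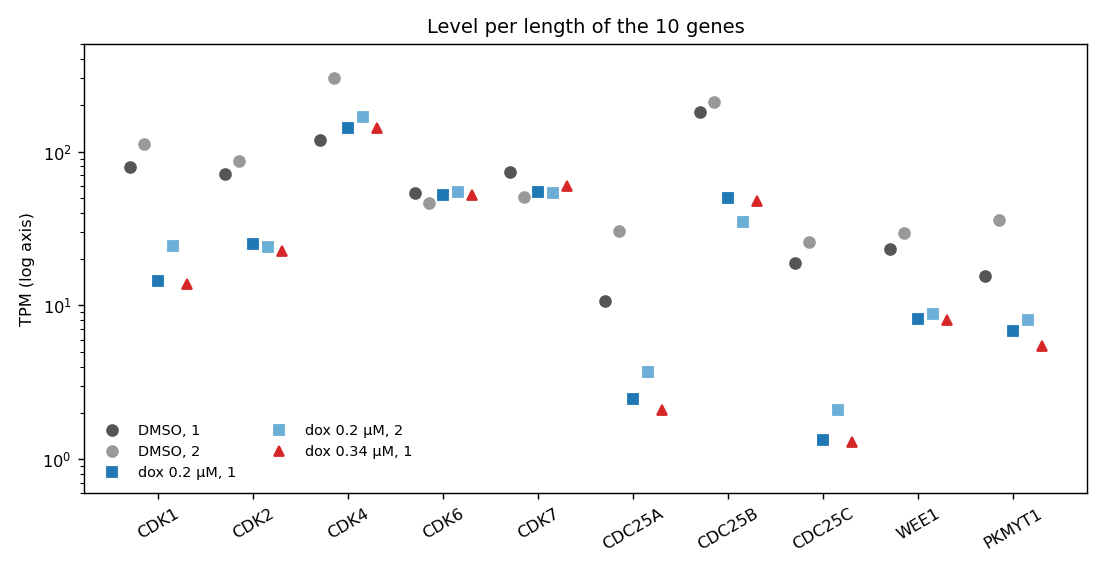
TPM (length-corrected level, log axis) of the 10 genes in each library, with a point per library. In doxorubicin CDK4, CDK6 and CDK7 lie within or near their DMSO range and CDC25C is the lowest gene, at 1.30 to 2.10 TPM.

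The make-up of each family is described by shares of summed TPM, without a test. Of the TPM of the 5 CDKs, CDK1 took 20.0% and 18.8% in the DMSO libraries and 4.99%, 7.50% and 4.78% in the doxorubicin libraries. The ratio of CDK4 to CDK1 was 1.50 and 2.67 in DMSO against 9.85, 6.88 and 10.2 in doxorubicin, and the groups did not overlap. Of the CDC25 TPM, CDC25C took 8.97% and 9.79% in DMSO and 2.49%, 5.17% and 2.56% in doxorubicin. CDC25B took most of the CDC25 TPM in every library, 85.9% and 78.7% in DMSO and 92.9%, 85.8% and 93.3% in doxorubicin, and its groups overlapped.

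Both sides of the phosphorylation switch were at lower summed levels in every doxorubicin library. The activating CDC25 genes summed to 210 and 265 TPM in DMSO and to 54.0, 40.5 and 50.9 TPM in doxorubicin, and the inhibitory WEE1 and PKMYT1 to 38.7 and 65.4 TPM and to 15.05, 16.9 and 13.5 TPM. The ratio of the CDC25 sum to the WEE1 and PKMYT1 sum was 5.42 and 4.05 in DMSO and 3.59, 2.40 and 3.77 in doxorubicin. The groups did not overlap, but the gap between 4.05 and 3.77 was smaller than the spread within either group. On the log2 scale the mean ratio was 2.23 ± 0.30 (SD, n = 2) in DMSO and 1.67 ± 0.36 (SD, n = 3) in doxorubicin, a difference of -0.55. Single libraries moved this value, which was -0.34 without DMSO replicate 1, -0.35 without 0.2 μM replicate 2 and -0.76 without DMSO replicate 2.

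The doses were then set side by side. Against the same DMSO libraries, the log2 fold change of CDC25C was -3.69 at 0.2 μM and -4.09 at 0.34 μM, that of CDK1 was -2.29 and -2.77, and that of CDC25A was -2.72 and -3.28. PKMYT1 had -1.77 and -2.23, CDK2 -1.68 and -1.79, WEE1 -1.61 and -1.70, and CDC25B -2.18 and -2.03. For each of these genes the SE was larger at 0.34 μM, with its 1 library, than at 0.2 μM. For CDC25C it was 0.58 against 0.42, and for CDK1 0.45 against 0.33. At 0.2 μM edgeR called 2 of the 10 genes, CDC25B and CDC25C, among 171 genes called in all. The difference of 0.34 μM minus 0.2 μM passed for 0 of the 10 genes in edgeR, DESeq2 and limma voom, and 0 of them had an unadjusted p under 0.05. Over all tested genes edgeR called 0%, and 22 genes had an unadjusted p under 0.05. The differences lay between -0.56 ± 0.67 (SE) for CDC25A and 0.15 ± 0.30 (SE) for CDC25B. With 1 library at 0.34 μM the SEs lay between 0.26 and 0.67. Since so few of all tested genes reached even the unadjusted level, 0 of the 10 does not show that the doses acted alike. In CPM, 8 of the 10 genes were lower at 0.34 μM than in both 0.2 μM libraries, as were 28.9% of tested genes. A term for libraries labelled as a second replicate moved the difference of CDC25A from -0.56 to -0.0019. It moved CDK1 from -0.48 to -0.14, PKMYT1 from -0.45 to -0.10 and CDC25C from -0.40 to -0.12. CDK6 went from -0.033 to -0.086, and CDK4 from -0.13 to 0.23.

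The partners and regulators of these genes were described from 10 lists with 68 genes tested of 69. Of the 68, 17 were called lower and 1 higher, against 4.02% of all tested genes called in either direction. In value, called or not, 49 were lower and 19 higher. Below, a gene of the lists is said to have fallen only where it was called lower. The median log2 fold change was -2.22 over the cyclins, -1.45 over the genes acting on CDC25 and WEE1, -0.58 over the CDK inhibitors, -0.46 over the checkpoint genes, -0.32 over other CDK family genes and -0.12 over the Greatwall list, beside 0.013 over all tested genes. The count of calls was 4 of 68 without DMSO replicate 2, 9 without either 0.2 μM library and 10 without the 0.34 μM library. Of the 8 cyclins that bind CDK1, CDK2, CDK4 and CDK6, 4 fell, and 2 were called without DMSO replicate 2. CCNA2, which binds CDK2 and CDK1, had 134 and 146 CPM in DMSO and 9.43, 10.5 and 7.33 CPM in doxorubicin. CCNB1, the mitotic partner of CDK1, had 83.7 and 163 CPM in DMSO and 7.54, 11.5 and 6.39 CPM in doxorubicin, a log2 fold change of -3.87 ± 0.36 (SE, edgeR adjusted p = 0.00181). CCNB2 and CCNE2 fell with log2 fold changes of -3.26 and -3.58. CCND1, the partner of CDK4 and CDK6, had 1088 and 1493 CPM in DMSO and 1784, 2431 and 1709 CPM in doxorubicin, which did not overlap, and its log2 fold change of 0.61 ± 0.24 (SE) was not past the threshold (edgeR adjusted p = 0.136). The CDK7 partners CCNH and MNAT1, at 0.36 and -0.59, gave no call, and MNAT1 had an unadjusted p under 0.05.

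Of the 7 CDK inhibitor genes, CDKN1A, the p21 gene induced by p53, was the 1 gene of the lists called higher. It had 294 and 258 CPM in DMSO and 2974, 2365 and 3356 CPM in doxorubicin, a log2 fold change of 3.39 ± 0.23 (SE, edgeR adjusted p = 0.000768). CDKN2C, an inhibitor of CDK4 and CDK6, fell with a log2 fold change of -2.18. Among 3 CDK phosphatase genes, CDKN3, which dephosphorylates the activating loop, fell with a log2 fold change of -3.73, and both CKS genes, small subunits of CDK complexes, fell (CKS1B -1.90 and CKS2 -1.92). The CKS calls were 0 without DMSO replicate 2, without 0.2 μM replicate 1 or without the 0.34 μM library, and 1 in the other fits with a library left out. Of the 2 inhibitor calls, edgeR made 0 without DMSO replicate 2 and 1 without 0.2 μM replicate 2.

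Of the genes that act on CDC25 and WEE1, 3 of 6 kinases and turnover genes fell, and 1 was called without DMSO replicate 2. PLK1, which activates CDC25C and marks WEE1 for destruction, had 208 and 190 CPM in DMSO and 4.60, 4.45 and 3.83 CPM in doxorubicin, a log2 fold change of -5.53 ± 0.16 (SE, edgeR adjusted p = 0.000136). AURKA, which activates PLK1, and its cofactor BORA fell with log2 fold changes of -3.66 and -2.81. In the checkpoint list 4 of 9 genes fell, and the 3 largest falls were those of CLSPN, TOPBP1 and CHEK1. CHEK1, the kinase that inhibits CDC25 proteins, had 43.9 and 66.6 CPM in DMSO and 21.0, 20.9 and 16.8 CPM in doxorubicin, a log2 fold change of -1.50 ± 0.22 (SE, edgeR adjusted p = 0.00882). The 4 checkpoint calls rested on all libraries, since edgeR called 1 gene of the list without the 0.34 μM library and 0 without any other single library. The upstream kinases ATM and ATR gave no call. MASTL, the Greatwall kinase that protects CDK1 substrates from dephosphorylation, was the 1 gene called of 9 in its list, with a log2 fold change of -1.72. None of the 7 genes of 14-3-3 proteins, which hold phosphorylated CDC25 in the cytoplasm, was called by edgeR, though DESeq2 called 2. An unadjusted p under 0.05 was seen for 6 of the 7, beside 30.8% of all tested genes. Among these 6, YWHAG (0.57) and SFN (2.58, at most 23 counts) were higher, and YWHAE, YWHAH, YWHAQ and YWHAZ lower. Among 15 other tested members of the CDK family, edgeR called CDK14 alone, with a log2 fold change of -1.49, and DESeq2 called 3. Over all genes DESeq2 called 2026 and edgeR 571, so the DESeq2 counts of these lists stand beside a higher rate. With 1 library left out, edgeR called neither MASTL nor CDK14 except in the fit without DMSO replicate 1.

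**Figure D4:**
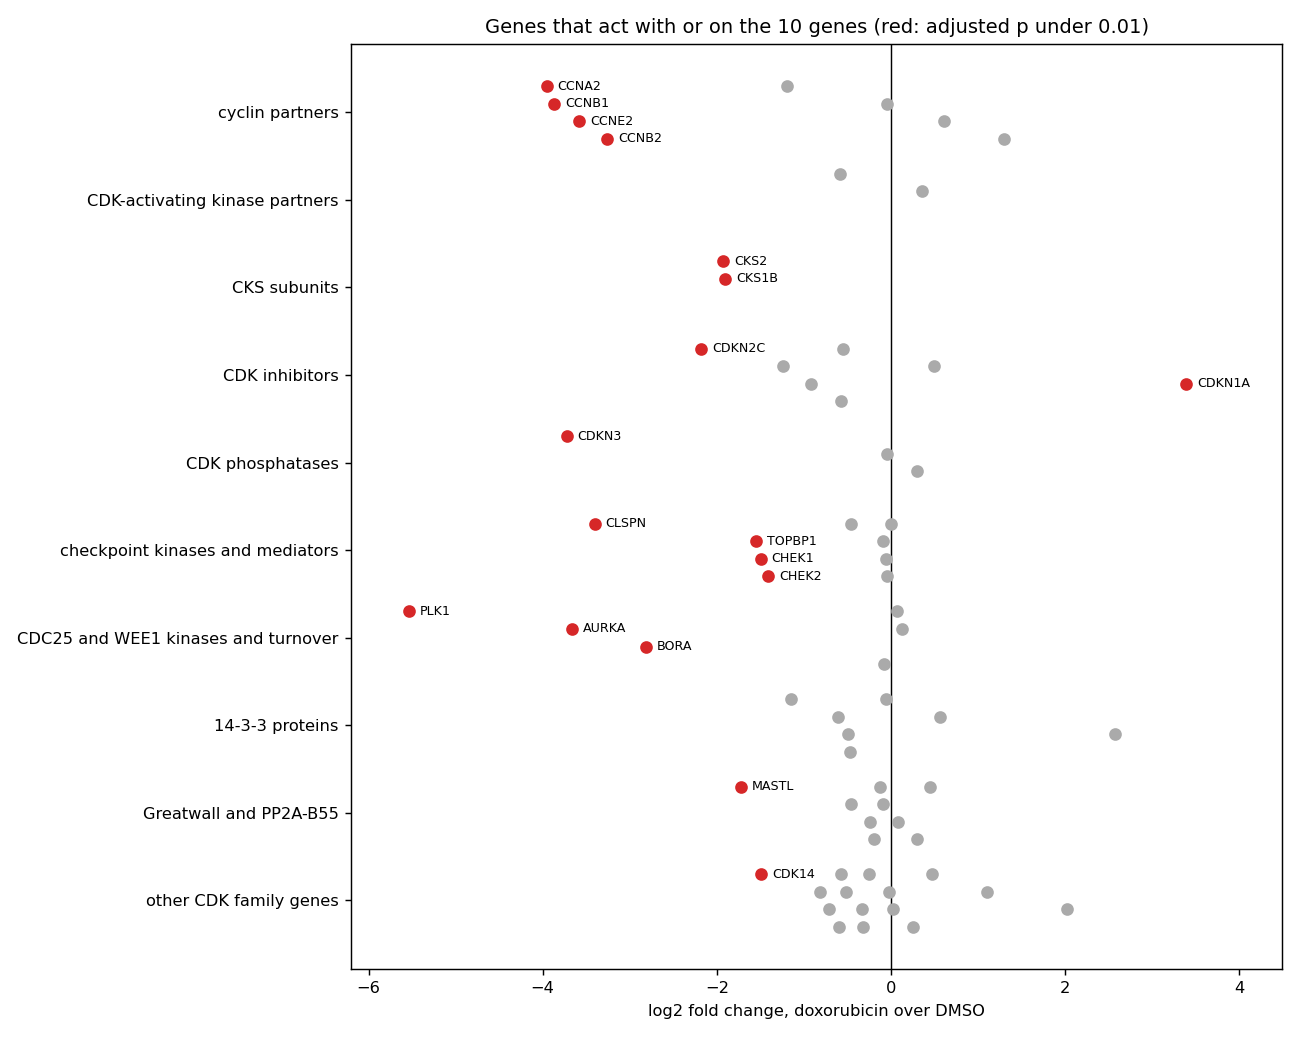
Log2 fold change of doxorubicin over DMSO (horizontal axis) for the 68 tested genes of 10 lists of partners and regulators (rows), a point per gene, with genes past an edgeR adjusted p of 0.01 in red and named. All red points lie to the left of 0 except CDKN1A, at 3.39, and PLK1 lies furthest to the left, at -5.53.

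The genes with the most similar profile were sought for 5 of the 10 genes, by the root mean square difference of log2 CPM, each centred on its own mean, over the 5 libraries and 11755 genes. For CDK1 they were BRCA2 (0.0788), CDC7 (0.104) and EZH2 (0.112), beside a median of 1.26 over all genes searched. For CDC25C they were AURKA (0.0547), KIF2C (0.0725) and NCAPG (0.0996), and for CDC25B they were POLD3 (0.133), SCML2 (0.134) and MXD3 (0.135). For WEE1 they were DNMT1 (0.0438), MASTL (0.0573) and CDK2 (0.0697), the last being another of the 10 genes. For CDK4 they were EHD4 (0.0334), PP7080 (0.0373) and RPA3 (0.0610). With 5 libraries many genes have like profiles, and these distances are descriptions.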

How the data were processed

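The authors mapped poly-A RNA reads to hg38 with STAR, counted them per gene with featureCounts of Rsubread and deposited the raw counts. Tool versions, the strand setting and the handling of multi-mapping reads were not given in the sources used here. CDK1, CDK2 and CDC25B overlap no other RefSeq gene, but CDK4 (TSPAN31), CDK6 (CDK6-AS1), CDK7 (CCDC125), CDC25C (FAM53C), PKMYT1 (PAQR4), CDC25A (pseudogenes) and WEE1 (LOC124902827) do, and their counts could include reads of these. A table holding the authors' own DESeq2 comparison was not used, and the ChIP-seq and Hi-C data were not analysed here.

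Counts were normalized by TMM and tested in R 4.3.3 with edgeR 4.0.16 (quasi-likelihood test, filterByExpr with a minimum count of 10 and total of 15, no covariates, threshold 0.01 on the Benjamini-Hochberg adjusted p over 14187 genes). SEs were derived from the fold change and the F statistic, as the size of the former over the root of the latter. DESeq2 1.42.0, limma 3.58.1 (voom), other filters, thresholds and groupings, a replicate block and leaving out each library were the alternatives. The dose contrast came from a fit of 3 conditions. The DMSO and 0.2 μM pairs had a chi-square per degree of freedom of 117 and 75.3 over genes, so no library was counted as a copy. The methods call them biological replicates, and p-values measure the spread between these libraries.

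TPM used the summed length of annotated exons (GENCODE, matched for 22608 genes by symbol and 1396 by an older symbol, 2481 unmatched), which covered 96.7% to 98.2% of counts. Log2 CPM used a prior count of 2, and profiles were sought among genes whose mean log2 CPM was 1 or more. Promoter windows came from RefSeq on GRCh38, the build of the files, and protein sequences were not analysed here. The scripts were tested on simulated data. All members are named, with the called genes of each related list up to the 3 with the largest change. CDKN1A, CCNB1, CCND1, CHEK1 and PLK1 are named in any case, as are the 3 nearest profiles of 5 members. ATM, ATR, CCNH, MNAT1, CCNB2, CDK3 and CDK18 were added after their values were seen. The same holds for YWHAG, SFN, YWHAE, YWHAH, YWHAQ and YWHAZ. The members and the lists were chosen with earlier results of these data known.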

Additional observations from a re-analysis of the deposited data

How the results depend on the processing

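Of the 10 genes, 5 were called in the comparison with DMSO and 18 genes of the related lists. At 0.2 μM alone these counts were 2 and 9, and with 1 library left out they were 0 to 4 and 4 to 12. The cause of these lower counts was not tested. The replicate block, a term for libraries labelled as a second replicate, gave 7 members, as did DESeq2 and the fit without the filter. Each of these added CDC25A and PKMYT1. The replicate differences of the DMSO pair and the 0.2 μM pair correlated at r = 0.528 over 14187 genes, but with only these pairs the numbers are not shown to pair the libraries. Over all genes 571 were called, against 2026 by DESeq2, 1020 without the filter, 1546 with the replicate block, 171 at 0.2 μM alone and 49 to 215 with 1 library left out.

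The member values with 1 library left out ranged from -0.98 to 0.31 for CDK4 (0.31 without DMSO replicate 2), from -0.034 to 0.22 for CDK6 and from -0.42 to 0.17 for CDK7, and these signs turned. For the dose difference the replicate block turned the sign of CDK4 to 0.23, of CDK7 to -0.028 and of WEE1 to 0.0070; the cause was not tested. Among alternatives with more than 1 library on each side, the largest adjusted p was 0.00639 for CDC25C and 0.00746 for CDC25B. It was 0.0130 for CDK2, 0.0175 for WEE1 and 0.0153 for CDK1. Comparisons with 1 library on a side, among them the higher dose alone, are left out, so these are not maxima over all fits. The log2 fold changes of these genes kept their direction in every fit. The ratio of CDC25 to WEE1 and PKMYT1 also kept its direction under its alternatives. The treated values of CDC25C rested on few reads, 23 to 33 counts.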

Other observations

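CDK18, a member of the CDK family, had 388 and 34 counts in the DMSO libraries, 1018 and 295 at 0.2 μM and 1706 at 0.34 μM. Its log2 fold change of 2.03 was not past the threshold (edgeR adjusted p = 0.210), and its replicates within DMSO differed more than 10-fold. CDK3 had 0 counts in every library.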
